A study of Homo sapiens with 4 samples.

Results

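The regions described here were intergenic chromatin sites near protein-coding genes that were recovered with MIR205HG probes in 2 replicates of a ChIRP-seq experiment. They were the replicate 3 peaks on chromosomes 1 to 22 and X that overlapped a replicate 2 peak by at least 1 bp, and whose summit lay outside every annotated gene, more than 3000 bp from any protein-coding gene and at most 50000 bp from the nearest protein-coding transcription start site (TSS). Summits at the TSS of any transcript, taken as 1500 bp before to 500 bp after it, were left out. In all, 1092 of the 17054 replicate 3 peaks met the rule, out of 8133 that overlapped replicate 2. The peak calls of replicates 2 and 3 chose these regions, so their values in those replicates are given as a description, while replicate 1 and the DNA sequence were not used to choose them.

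RWPE-1 is a line of immortalized normal prostate epithelial cells, and all 4 samples came from it, with no treatment named in the labels. The MIR205HG probe pool was used in 3 replicates and the lacZ pool, which targets a bacterial RNA absent from human cells, in 1 sample. That single lacZ library was the background for all 3 peak lists, so the lists are not independent of each other and no test between conditions was possible. The lists hold peaks and no RNA levels, so the basal character of the cells could not be checked from them.

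MIR205HG is the host gene of miR-205 and also gives a long noncoding RNA, named LEADR, that associates with chromatin in prostate basal cells. In ChIRP, biotinylated antisense oligonucleotides capture an RNA with the crosslinked chromatin around it, and the recovered DNA is sequenced. Alu elements are short interspersed repeats found throughout the human genome, in introns and between genes, and the MIR205HG transcript carries an Alu-derived part. Intergenic sequence close to genes can hold enhancers and other regulatory elements, which peak lists alone do not identify.

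Sequences at some of these peaks are shown first, picked because they resembled short stretches of the MIR205HG transcript itself. Other strong peaks, among them the strongest, near PFDN1, held no match. The annotated transcript is 1007 nt long, its Alu part covers bases 149 to 415, and another repeat-like part covers bases 750 to 784. Windows of 20 bases from the rest of the transcript were compared, without gaps and on both strands, with the 110 bases on either side of each summit, and a match was counted from 16 identical bases. Windows were chosen on the 7041 shared peaks that are not described here, as those matched at 15 or more summits and at least 4 times as often as 2000 bp away, and neighbouring windows were joined. This gave 11 stretches, S1 to S11, and a joined stretch as a whole can fall below that ratio, as S6 did with 56 summits against 20 and 16, and S11 with 58 against 18 and 13. The stretches matched by the sites shown next, and S4, read as follows in the transcript, 5′ to 3′. S9, which had the second most matches at near-gene peaks, is described further on with its Alu content.

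S1, bases 10 to 43: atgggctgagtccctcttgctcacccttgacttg
S2, bases 36 to 57: ttgacttggaaaaaccagtttc
S4, bases 431 to 459: cggcccccacctttcctcaggagtcattt
S5, bases 454 to 481: tcatttctgttccgcacaggcctgctga
S6, bases 479 to 503: tgaactgggtgctttatataggaca
S11, bases 939 to 965: attgatgctatgaaaatttgcgttttc

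Genomic sequences of 7 near-gene peaks follow, each written in the direction of the transcript, with the bases identical to the transcript within the matched 20 in capitals. Coordinates are those of the printed 60 bases on GRCh37 (hg19), and the summit of each peak lay outside any annotated gene. The peaks near NTM and PRIMA1 matched S5, and those near CPXM2 and MARK3 matched S2. Those near MACROH2A1 and IL1RL1 matched S11 and S6, and the peak near GPR174 matched S1. All 7 were picked for a match, and those near MARK3, IL1RL1 and GPR174 are not among the 12 strongest peaks described below.

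NTM, chr11:132247719-132247778, minus strand: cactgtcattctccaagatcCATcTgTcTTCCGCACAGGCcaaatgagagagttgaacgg
PRIMA1, chr14:94283181-94283240, plus strand: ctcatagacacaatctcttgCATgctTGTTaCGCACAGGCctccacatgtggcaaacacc
CPXM2, chr10:125712349-125712408, plus strand: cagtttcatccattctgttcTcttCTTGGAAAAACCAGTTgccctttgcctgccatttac
MARK3, chr14:103844220-103844279, plus strand: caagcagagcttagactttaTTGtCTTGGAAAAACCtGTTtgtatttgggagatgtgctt
MACROH2A1, chr5:134753731-134753790, plus strand: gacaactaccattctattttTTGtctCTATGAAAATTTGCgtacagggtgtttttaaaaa
IL1RL1, chr2:102902180-102902239, plus strand: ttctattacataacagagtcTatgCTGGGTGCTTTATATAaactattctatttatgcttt
GPR174, chrX:78352942-78353001, plus strand: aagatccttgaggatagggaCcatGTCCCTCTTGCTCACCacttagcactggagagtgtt

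In these 7 sites, 16 to 18 of the 20 bases were identical to the transcript. The longest unbroken run of identical bases was 16 in the CPXM2, IL1RL1 and GPR174 sites, 14 in the MACROH2A1 site, 12 in the NTM and MARK3 sites, and 9 in the PRIMA1 site. The peaks near VPS41 and TUBB8B did not reach 16 of 20 and are shown because they shared an exact run with S1, of 14 and 13 bases.

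VPS41, chr7:38991031-38991084, minus strand: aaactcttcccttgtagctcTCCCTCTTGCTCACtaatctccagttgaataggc
TUBB8B, chr18:96733-96785, plus strand: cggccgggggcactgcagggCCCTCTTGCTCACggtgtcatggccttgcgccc

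The fold enrichment printed for each peak is the ChIRP pileup at the summit, scaled to the depth of lacZ, over the lacZ background, with 1 added to each. The strongest peak by the lower of its folds in replicates 2 and 3 lay 15550 bp upstream of the TSS of PFDN1, which encodes a subunit of the prefoldin chaperone, at chr5:139697479-139701149. Its fold was 14.7 in replicate 1, 36.1 in replicate 2 and 42.8 in replicate 3. It was 3671 bp wide and carried an Alu but no match to the stretches.

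The next peak, near NTM, which encodes the neuronal adhesion protein neurotrimin, had a fold of 16.8 in replicate 1, 26.4 in replicate 2 and 36.6 in replicate 3. The peak near PRIMA1, whose product anchors acetylcholinesterase in neuronal membranes, had folds of 12.2, 21.1 and 32.9 in replicates 1, 2 and 3. Both held the bases GCACAGGC of S5 and were found in every replicate.

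The peak near CPXM2, a member of the carboxypeptidase family, had folds of 16.04, 21.1 and 34.3 in replicates 1, 2 and 3. The peak near MACROH2A1, which encodes a histone H2A variant, had folds of 14.1, 20.3 and 33.4. The peak near ALKAL1, a ligand of the receptor tyrosine kinases ALK and LTK, had folds of 8.41, 18.8 and 29.4, and matched both S2 and S5. These peaks too were found in all replicates, with the lowest fold in replicate 1 and the highest in replicate 3.

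Replicate 1 had no peak at 4 of the 12 strongest sites. The peak near BATF, an AP-1 family transcription factor, had a fold of 24.9 in replicate 2 and 33.0 in replicate 3. The peak near TUBB8B, a tubulin gene, had folds of 19.7 and 41.2, that near ADGRA1, an adhesion G protein-coupled receptor, 18.7 and 19.2, and that near TAPT1 17.98 and 24.4. Another of the 12, near TXNIP, which encodes a thioredoxin-binding protein, had folds of 7.59, 18.5 and 20.9 in replicates 1, 2 and 3. None of these 5 sites held a stretch match. Of the 12 strongest peaks, 6 held a match to a stretch outside Alu (50%, exact 95% interval 21.1 to 78.9%). Of the other 1080, 97 did (8.98%, 7.34 to 10.8%). This contrast is a description only, since replicates 2 and 3 gave the ranking and the search was widened after its values were seen. The matches near CPXM2 and MACROH2A1 were centred 89 and 86 bp from the summit, beyond the 60 bases first searched on each side. A count for the 12 in the search as first run is not given. All intervals given for shares are exact Clopper-Pearson 95% intervals over peaks and cover counting error only.

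Ranked by fold in replicate 1, which the rule did not use, the highest near-gene peak was that of GPR174, an X-linked G protein-coupled receptor gene, with folds of 17.5, 14.1 and 24.3 in replicates 1, 2 and 3. The peak near VPS41, which encodes a subunit of the HOPS tethering complex, had folds of 16.7, 12.2 and 25.9. The peak near SYCP1, a component of the synaptonemal complex, had folds of 12.8, 7.24 and 14.4. In contrast to the strongest peaks above, these 3 had a lower fold in replicate 2 than in replicate 1.

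Across all 1092 near-gene peaks, the median fold was 7.47 in replicate 3 (quartiles 5.67 and 10.5, range 2.15 to 42.8) and 6.35 in replicate 2 (quartiles 5.06 and 8.29, range 2.02 to 36.1). The fold was higher in replicate 3 at 791 of them (72.4%). Across the peaks, log2 folds of the 2 replicates had a Pearson correlation of 0.71 and the folds a Spearman correlation of 0.651 (n = 1092 peaks that share the lacZ library). Summits of the 2 replicates were a median of 44 bp apart, and 809 pairs (74.1%) lay within 100 bp. The median width was 418 bp, and 128 peaks (11.7%) were 1 kb or wider. The 1092 peaks overlapped 1071 distinct replicate 2 peaks.

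Deposited fold and p-value together gave the reads at each summit, and a median of 22 reads in replicate 3 and 24 in replicate 2 lay behind these folds. At the 57 peaks also found in replicate 1, the medians were 45 reads in replicate 3, 41 in replicate 2 and 30 in replicate 1. The depth of replicate 1 relative to lacZ was 1.83, that of replicate 2 1.39 and that of replicate 3 1.00, by the ratio that solved every peak. Total reads per library are not in the peak lists. Replicate 1 had the fewest peaks, 723 against 10765 in replicate 2 and 17054 in replicate 3.

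**Figure D1:**
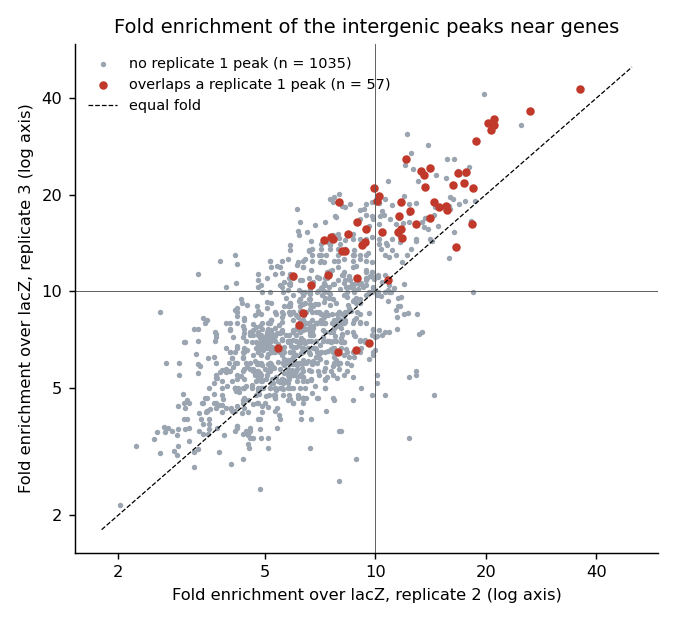
Fold enrichment over lacZ of the 1092 intergenic peaks near genes in replicate 2 (x axis, log scale) and replicate 3 (y axis, log scale), 1 point per peak; red points overlap a replicate 1 peak, and the solid lines mark a fold of 10. Of the 57 red points, 35 lie at a fold of 10 or more in both replicates.

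Of all 2140 replicate 3 peaks in near-gene intergenic sequence, 51.0% overlapped a replicate 2 peak (48.9 to 53.2%), beside 47.7% of all replicate 3 peaks. This overlap is part of the rule. Replicate 1 peaks overlapped 57 of the 1092 (5.22%, 3.98 to 6.71%), beside 7.99% of all shared peaks. Shared intergenic peaks over 50000 bp from a coding TSS overlapped replicate 1 in 160 of 1434 cases (11.2%, 9.57 to 12.9%), those inside coding genes in 270 of 3647 (7.40%, 6.57 to 8.30%) and those at promoters in 46 of 779 (5.91%, 4.36 to 7.80%). The near-gene share was thus below that of all shared peaks, and its interval did not overlap that of the intergenic peaks farther away. The 57 had a median fold of 8.72 in replicate 1 (range 4.34 to 17.5).

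The overlap with replicate 1 was more frequent at higher fold. Where the lower fold of replicates 2 and 3 was 10 or more, 35 of 114 near-gene peaks overlapped (30.7%, 22.4 to 40.03%), from 5 to 10 it was 22 of 647 (3.40%, 2.14 to 5.10%), and under 5 it was 0 of 331 (0.906% would be 3 peaks, and the exact interval reaches 1.11%). It was also higher in peaks of low GC content. Below 45% GC, 30 of 269 overlapped (11.2%, 7.65 to 15.5%), from 45 to 50% GC 21 of 442 (4.75%, 2.96 to 7.17%), and at 50% or more 6 of 381 (1.57%, 0.580 to 3.40%). Both gradients were also present in the farther intergenic peaks, where the shares by GC were 20.9, 7.10 and 1.66%, and the share at a fold of 10 or more was 46.2% (39.1 to 53.4%). The median GC content was 44.4% in the 57 and 48.5% in the other 1035, and its part in the overlap was not tested.

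**Figure D2:**
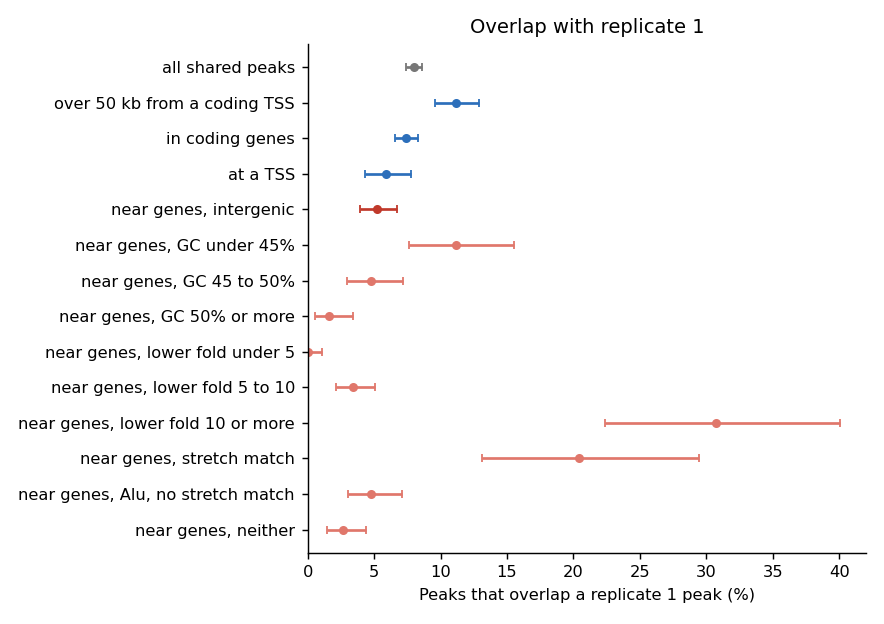
Percentage of shared peaks that overlapped a replicate 1 peak (x axis) by position and, for the intergenic peaks near genes, by GC content, by the lower fold of replicates 2 and 3, and by sequence kind; points are shares and bars exact 95% intervals. The share was 30.7% at a lower fold of 10 or more and 20.4% in peaks with a stretch match, against 5.22% of all near-gene peaks.

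Matches to the transcript stretches were counted over all near-gene peaks. In S9, 63.9% of the matching peaks among the 7041 others also held an Alu, so S9 was set aside and the other 10 stretches were counted as outside Alu. At least 1 of these 10 was matched at 103 near-gene summits (9.43%, 7.76 to 11.3%). The same search 2000 bp upstream and downstream, by coordinate, gave 2.11% and 1.10%. The share was 14.4% (12.6 to 16.3%) in the farther intergenic peaks, 10.5% in coding genes, 11.8% at promoters and 11.3% in all shared peaks. The stretches were chosen on the shared peaks outside the near-gene set, so that choice can raise these shares. The lower near-gene share therefore cannot be read as an effect of position. The length searched and the choice to set S9 aside were made after the values were seen. The search as first run, with 60 bases on each side and its own 6 stretches, matched 48 near-gene peaks (4.40%, 3.26 to 5.79%), and 15 and 4 at the positions 2000 bp away.

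S1 was matched most often, at 38 near-gene peaks (3.48%), against 9 and 1 at the positions 2000 bp upstream and downstream. It was matched at 5.31% of the 7041 other shared peaks, on which it was chosen. S5 was matched at 14 near-gene peaks, S4 at 13, S6 at 10, S2 at 9, S11 at 7, S8 at 5, S3 and S7 at 4 each and S10 at 1. All 5 matches to S8 lay in peaks with an Alu. S9, set aside, was matched at 35 near-gene peaks, 25 of them with an Alu. The 8 bases TCTTGCTC of S1, on either strand, were present at 111 near-gene summits (10.2%), at 39 and 29 of the positions 2000 bp away, and at 11.1% of the other shared summits. The bases GCACAGGC of S5 were present at 38, against 15 and 12. These counts include peaks with an Alu, and whether the excess at summits lies outside Alu was not tested. Higher counts were found for some other stretches, with 8 bases chosen in the same way. ACCACACC of S9, set aside for its Alu content, was present at 123 summits against 34 and 28. TCAGGAGT of S4 was present at 164 against 67 and 64, and CACTCCAG of S8 at 240. The 8 bases of the other stretches did not all follow this pattern. ACTTGGAA of S2 was present at 9 summits against 9 and 6, AAAATTTG of S11 at 23 against 18 and 23, and GTGGAGTG of S10 at 8 against 10 and 12.

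**Figure D3:**
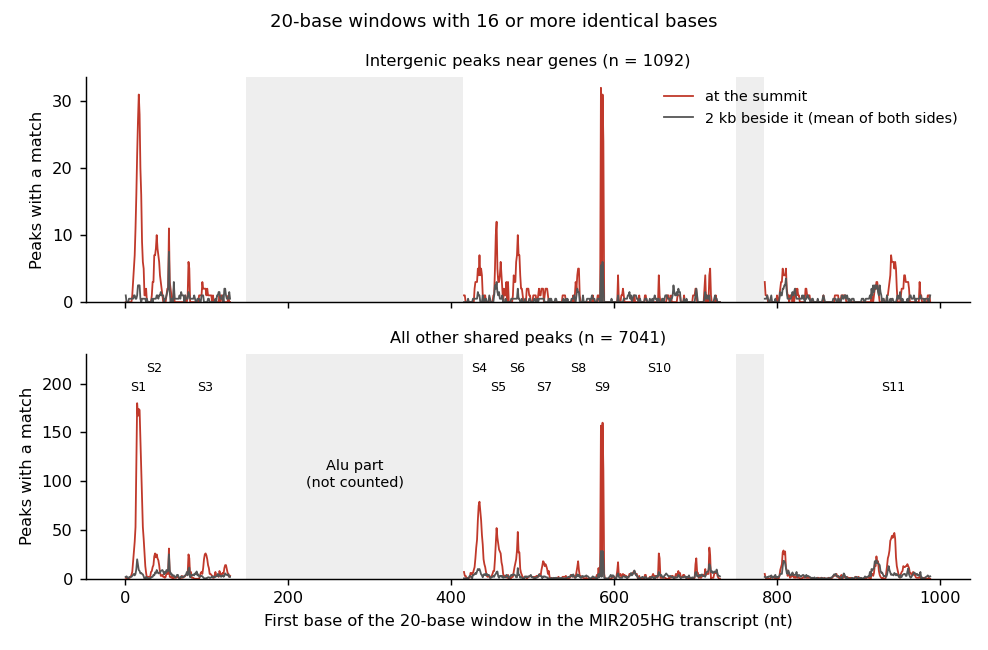
Number of peaks with a match of at least 16 of 20 bases (y axis) for each 20-base window of the MIR205HG transcript (x axis, nt), at the summit (red) and 2 kb beside it (grey, mean of both sides); top, the 1092 intergenic peaks near genes; bottom, the 7041 other shared peaks, on which S1 to S11 were chosen. Shaded parts are repeat-derived and were not counted, and the same windows, S1 and S9 above all, stand out in both panels.

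The 103 peaks with a stretch match had a median fold of 11.3 in replicate 3 and 7.13 in replicate 2. Those with an Alu and no match (462 peaks) had medians of 6.97 and 6.35, and the 527 with neither had 7.30 and 6.31. The share with a match was 4.83% (2.79 to 7.73%) of the peaks with a lower fold under 5. It was 28.1% (13.7 to 46.7%) of the 32 with a lower fold of 15 or more. These shares by fold are a description only, since replicates 2 and 3 chose the peaks and the search is the widened one. Shares by fold in the search as first run are not given. Peaks with a match overlapped replicate 1 in 21 of 103 cases (20.4%, 13.1 to 29.5%), those with an Alu only in 22 of 462 (4.76%, 3.01 to 7.12%) and those with neither in 14 of 527 (2.66%, 1.46 to 4.42%). Conversely, 36.8% of the 57 near-gene peaks found in replicate 1 had a match (24.4 to 50.7%). So did 33.7% of all 650 shared peaks found there, which include peaks on which the stretches were chosen. In the search as first run, 7 of the 48 matching peaks overlapped replicate 1 (14.6%, 6.07 to 27.8%), which is 12.3% of the 57.

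The centre of the best match lay a median of 57 bp from the summit (quartiles 32.5 and 83), and 49 centres (47.6%) lay over 60 bp away. The search allowed a centre at most 100 bp from the summit, so these distances are bounded by it and do not measure closeness to the summit. Of the 103, 57 were on the plus strand of the genome and 46 on the minus strand, and 48 ran in the direction of the nearest gene. They had 16 identical bases in 52 peaks, 17 in 40 and 18 or more in 11. Peaks with a match had a median GC content of 45.3%, against 48.8% in those with an Alu only and 48.0% in those with neither. The probe pool is made of 20-base oligonucleotides antisense to the transcript. Their sequences were not used here, and whether the stretches coincide with probe positions was not tested.

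Alu sequence was common at these peaks. An alignment of at least 100 bp to the Alu part of the transcript was found in 484 of the 1092 (44.3%, 41.3 to 47.3%). The share was 31.2% (28.8 to 33.7%) in the farther intergenic peaks, 42.3% in coding genes, 37.6% at promoters and 38.9% in all shared peaks. The aligned length had a median of 112 bp and a maximum of 145 bp, at a median identity of 81.0%. Within 100 bp of the near-gene summits, 16.2% of bases lay in such alignments, against 5.40% from 1000 to 4500 bp away. In the farther peaks the values were 12.02% and 2.34%, so both the summits and the sequence around them held more Alu near genes. Among the 57 near-gene peaks found in replicate 1, 24 held an Alu (42.1%), close to the share of all near-gene peaks.

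**Figure D4:**
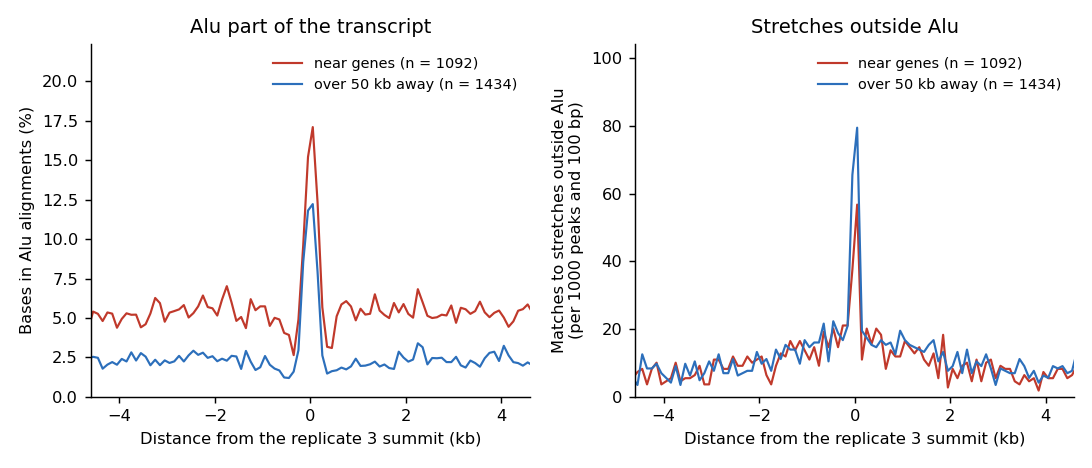
Left, percentage of bases in alignments to the Alu part of the transcript, and right, matches to the stretches outside Alu per 1000 peaks and 100 bp (y axes), by distance from the replicate 3 summit (x axes, kb), for the intergenic peaks near genes (red) and over 50 kb away (blue). Both measures peak at the summit, and the Alu level is higher near genes at the summit and on either side of it.

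Near-gene peaks were spread over 646 nearest coding genes, 3.21% of the 20098 annotated. Of these genes, 378 had 1 peak, 268 had 2 or more and 39 had 4 or more. PPP1CC, a catalytic subunit of protein phosphatase 1, had the most, with 8 peaks over 31.1 kb and folds of 5.90 to 22.99 in replicate 3 and 4.16 to 14.7 in replicate 2. CPLX2, a complexin of synaptic vesicle release, and GTSF1L had 7 each, with folds in replicate 3 of 3.65 to 16.4 and 5.44 to 17.9. ADGRA1, BLCAP and LGI2 had 6 each. CCNG2, a cyclin gene, and DNMT3A, a DNA methyltransferase, had 5 each.

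Replicate 1 had a peak at 1 of the 7 GTSF1L sites and 1 of the 5 CCNG2 sites, and at none of the other sites of these 8 genes. All 5 DNMT3A peaks lay 27474 to 31222 bp downstream of the nearest TSS, in a cluster 4.29 kb long, with folds of 8.47 to 16.4 in replicate 3. In total, 311 near-gene peaks (28.5%) lay within 1000 bp of another and 685 (62.7%) within 5000 bp, so peaks counted for 1 gene were often close neighbours. Alus were found in 48.3% of these 685 (44.5 to 52.1%) and in 37.6% of the others (32.9 to 42.5%). With the 1000 bp limit the shares were 47.6% (41.9 to 53.3%) and 43.02% (39.5 to 46.6%), with overlapping intervals.

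Of the 1092 summits, 750 lay upstream of the nearest coding TSS (68.7%, 65.8 to 71.4%), beside 67.6% of the sequence that the rule allows. The median distance was 21893.5 bp, beside 21007 bp for that sequence. Density was 3.54 peaks per Mb over 308 Mb of allowed sequence and 2.12 per Mb over 678 Mb of intergenic sequence farther away. By 10-kb step of distance it ranged from 2.79 to 3.97 per Mb, and all 10 intervals overlapped each other. By chromosome it was highest on chromosome 20 (7.30 per Mb) and lowest on X (0.839 per Mb). The farther intergenic peaks had the same extremes, with 4.47 per Mb on chromosome 20 and 0.357 per Mb on X. The near-gene peaks lay between divergent genes in 364 cases (33.3%), between genes in tandem in 564 and between convergent genes in 160. The share of the allowed sequence in each of these kinds was not computed, and the distance limits of the rule can favour some kinds. These counts are therefore a description only.

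**Figure D5:**
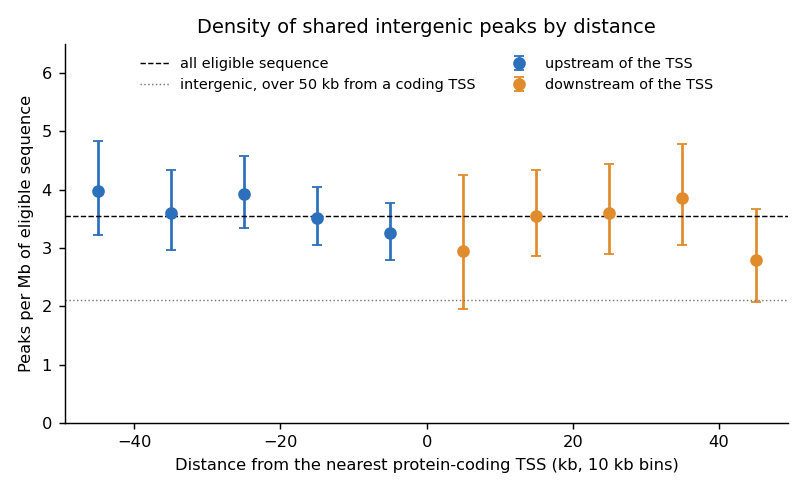
Intergenic peaks near genes per Mb of allowed sequence (y axis) by distance from the nearest protein-coding TSS in 10-kb bins (x axis; negative values are upstream), with 95% counting intervals; the dashed line is the mean of 3.54 per Mb and the dotted line the 2.12 per Mb of farther intergenic sequence. Densities run from 2.79 to 3.97 per Mb with overlapping intervals.

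Genes of lists tied to prostate epithelium and to chromatin were looked up among the nearest genes. Of 24 basal epithelial markers, 2 had a near-gene peak, CAV1 and S100A2. The CAV1 peak, 6805 bp upstream of this caveolin gene, had folds of 8.98, 14.1 and 16.9 in replicates 1, 2 and 3. The S100A2 peaks, 3216 and 4448 bp upstream of this calcium-binding protein gene, had folds of 10.6 and 7.74 in replicate 2 and 11.2 and 7.97 in replicate 3, with no replicate 1 peak. Of 23 luminal markers, 2 had a peak, TMEFF2 and NDRG1. The NDRG1 peak had folds of 7.86, 10.5 and 15.3 and matched S4.

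Of 26 keratinocyte differentiation genes, KLF4 and CNFN had a near-gene peak. The KLF4 peak, near a transcription factor gene of epithelial differentiation, had a fold of 8.88 in replicate 2 and 11.98 in replicate 3. Of 19 AP-1 and MYC family genes, BATF and BATF3 had peaks, of 31 WNT ligands and receptors FZD7, and of 30 Polycomb and Trithorax genes CBX6 and CBX8. CBX6, a Polycomb chromobox gene, had 4 peaks with folds of 3.65 to 12.4 in replicate 3. Interferon response genes had 0 of 35 (8.57% would be 3 genes, and the exact interval reaches 10.003%) and Alu RNA-binding proteins 0 of 13 (23.1% and 24.7%). With 0 to 2 genes per list, the lists' intervals all included the 3.21% of all coding genes.

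At the distance limits of the rule, the peaks just inside 50000 bp were those near IYD (49836 bp) and YWHAZ (49878 bp), and those just outside were near UNC93A (50013 bp) and IPO5 (50034 bp). The YWHAZ peak had folds of 11.95, 16.3 and 21.4 in replicates 1, 2 and 3, and the UNC93A peak had 13.3 and 12.5 in replicates 2 and 3. Just inside the 3000 bp limit to a coding gene were peaks near PDCD2 (3029 bp) and H3-3A (3055 bp), and just outside were SPARC (2983 bp) and SLC22A16 (2990 bp). At the MIR205HG locus itself, chr1:209602162-209606193, replicates 1 and 2 had 0 peaks and replicate 3 had 2, with a highest fold of 9.21.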

How the data were processed

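ChIRP-seq was made in RWPE-1 cells with MIR205HG probes (3 samples) and lacZ probes (1 sample). The authors aligned single reads to hg19 and ran MACS2 on each MIR205HG replicate alone, with the lacZ library as control, to call narrow peaks. The submitters' processing notes name Bowtie 1.0.1 and MACS2 2.1.0, while the published methods name Bowtie2. A deposited peak has a fold, a ratio of ChIRP pileup over lacZ background, the p-value and q-value as −log10, a score of 10 times the −log10 q-value, and the summit. The score was not used.

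Positions came from GENCODE release 44 on GRCh37. Reads at summits were solved from fold and p-value with 1 depth ratio per replicate. Alus were found with blastn 2.17.0 (e-value at most 1e-05, at least 100 bp) and transcript stretches with ungapped 20-base windows, using the annotated MIR205HG transcript. The stretch search was revised after its results were seen: it first used 60 bases on each side of the summit, was widened to 110 because matches lay farther out, and S9 was then set aside for its Alu content. Values of the first search are given beside the revised ones. Steps were tested on simulated data. Planted matches and planted Alu parts were all found, and 11% of 100 random sequences matched some window of the whole transcript. That rate covers all windows and not only the stretches. The read solver was given the true depth ratio, so the fit of that ratio was not tested. Python 3.11.15, pandas 2.3.3, scipy 1.17.1 and pysam 0.24.0 were used.

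The peaks and gene lists were chosen with earlier results of these data known. Named genes are nearest to the 12 strongest peaks, the 8 highest in replicate 1, genes with the most peaks (at most 8), list genes, peaks at the limits of the rule, and MIR205HG. MARK3 and IL1RL1 were chosen after their values were seen, as examples of matches. Peaks on chromosome 8 are given without sequence. One of the 12 strongest peaks is counted but not reported here by name. Alternatives changed the overlap, fold, q-value and distance limits, the Alu length, the region searched and the replicates.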

Additional observations from a re-analysis of the deposited data

How the results depend on the processing

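Of 64 alternative values for 9 results, 38 were counted as unchanged and 26 as moved. The limit differed by result. For the number of peaks it was wide, so 882 and 761 against 1092 were counted as unchanged. For the median folds it was the standard deviation of the replicate 2 and 3 medians, 0.789. For the other results it was the interval of the reported value. The 38 include the values without replicate 1, which equal the reported ones by construction because the rule did not use that replicate. The 25000 bp limit gave 616 peaks, a median distance of 13211 bp and 72.4% upstream. A fold of at least 5 in both lists gave a replicate 1 overlap of 7.49% and median folds of 8.63 in replicate 3 and 7.33 in replicate 2. Counting only the 5′ end of each gene put 76.6% upstream. A shorter Alu alignment of 50 bp gave 65.3% with an Alu and one of 150 bp gave 0, since the longest was 145 bp. In 500 bp around the summit the median GC content was 46.9%.

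Leaving out each replicate in turn gave 59 to 1092 peaks, median folds of 7.47 to 16.5 in replicate 3 and 6.35 to 11.5 in replicate 2, 68.7 to 77.0% upstream, median distances of 21346 to 23970 bp, 40.7 to 44.3% with an Alu and a median GC of 44.4 to 48.3%. The values without replicate 1 are the reported ones, so they do not test stability. The lowest counts, 59 without replicate 2 and 61 without replicate 3, follow from the 723 peaks of replicate 1. Without replicate 2 or 3 the replicate 1 overlap has no value, since replicate 1 then chooses the peaks, and neither has the median fold of the replicate left out.

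The stretch match share also depended on its settings, all chosen after seeing the data. It was 4.67% from 17 and 1.01% from 18 identical bases, and 4.12% within 60 bases of the summit. It was 4.40% in the search as first run, 12.6% with S9 counted and 9.07% with the replicate 2 summit. Leaving out matching peaks with an Alu, but keeping all 1092 peaks in the total, gave 7.42%. The 81 matching peaks then left lay among the 608 peaks without an Alu, and the 22 left out among the 484 with one. The share of replicate 1 peaks with a match was 36.8% as reported and 12.3% in the search as first run, so its size rests on the revised search.

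No paired analysis was possible because lacZ has 1 library and no peak list of its own. All 3 lists share that library, so anything particular to it enters every fold. Depth is known only relative to lacZ, and peaks below the calling threshold are not listed, so a site with no replicate 1 peak was not shown to lack signal there.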
